A study of Mus musculus with 12 samples.

Results

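*Col7a1*, which encodes the chain of type VII collagen, and 3 genes close to it on chromosome 9, *Slc26a6*, *Ucn2* and *Pfkfb4*, were followed in the mouse hippocampus with and without *Dek*. The 4 genes were taken by symbol out of 26409 listed genes, after *Col7a1* had been selected on its difference between the genotypes in these same libraries. Their levels in *Dek* cKO and WT mice are therefore given as a description with no test, and tests are kept for contrasts that the choice did not use and for genes chosen by position or by list. The question was whether the higher level of *Col7a1* in *Dek* cKO mice was shared by the genes beside it.

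RNA was sequenced from the hippocampi of 12 adult mice, 3 in each of 4 groups, female WT, male WT, female *Dek* cKO and male *Dek* cKO. The cKO mice carry a *Dek* allele from which exons 3 and 4, flanked by loxP sites, were removed by crossing to CMV-Cre mice on C57Bl/6. The Cre transgene was then bred out and the line kept by mating heterozygotes, so every cell of the animal lacks the segment from conception and the comparison is not specific to a cell type. The labels place tissue collection after behavioral assays, and they give no age for single animals. The female WT libraries are named with the prefix C57 and the other 9 with CMV, so this prefix and the group of female WT mice cannot be told apart. The libraries labelled female cKO replicate 3 and male cKO replicate 1 carry levels of the Y-linked gene *Eif2s3y* (72.7 and 0.111 TPM) that go against their labelled sex. They were kept under their labels, and the differences within a sex and the interactions are also given without them. *Dek* itself, the targeted chromatin protein gene, stood at 44.2 to 51.9 TPM in the 6 WT libraries and at 5.55 to 9.25 TPM in the 6 cKO libraries.

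Levels are in TPM, a unit that divides reads by transcript length and scales them to a common total, so that levels of different genes can be set side by side. The number of reads behind a value is not kept in this unit and the depth is unknown. Differences are on the scale of log2(TPM + 0.1) and come from limma fitted to 18197 genes, those that averaged 0.1 TPM or more over the libraries. This scale understates the change of low genes. Calls required a fold change of more than 1.2 and a p below 0.05 after Benjamini-Hochberg adjustment.

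Type VII collagen is secreted mainly by keratinocytes and fibroblasts, and its trimers assemble into the anchoring fibrils that fasten the epidermal basement membrane to the dermis. Its loss causes the blistering disease dystrophic epidermolysis bullosa. *Ucn2* encodes urocortin 2, a peptide of the corticotropin-releasing factor (CRF) family that binds CRF receptor 2 in stress and cardiovascular physiology. *Pfkfb4* encodes an enzyme that makes and breaks down fructose 2,6-bisphosphate, the activator of the committing step of glycolysis, and *Slc26a6* encodes an anion exchanger of epithelia that carries chloride, bicarbonate and oxalate.

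In GENCODE M21, the annotation of GRCm38, all 4 genes lie on the plus strand of chromosome 9 in the order *Slc26a6*, *Col7a1*, *Ucn2* and *Pfkfb4*. *Col7a1* (ENSMUSG00000025650) spans 108953586 to 108984875, and its longest coding transcript has 119 exons and 9250 bases. *Ucn2* (ENSMUSG00000049699) is a small gene of 1155 bases at 108986010 to 108987164 and starts 1135 bases beyond the end of *Col7a1*. *Pfkfb4* (ENSMUSG00000025648), at 108991778 to 109032228, starts 6903 bases beyond that end. *Slc26a6* (ENSMUSG00000023259) is annotated at 108853283 to 108913049 and ends 40.5 kb before the start of *Col7a1*. *Tmem89* and *Uqcrc1* lie between them, and *Uqcrc1* ends 3963 bases before *Col7a1* begins.

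The RefSeq promoter windows of 3 of the 4 genes are shown because the comparison turns on whether neighbours on 1 strand share a difference. The promoter set used here had no entry for *Ucn2*, so the motifs of that gene were not read. Each window runs from 250 bases before to 50 bases after the annotated start (GRCm38.p6, plus strand), and capitals mark the GC box, GGGCGG or its complement, a motif bound by Sp1-type factors. The windows are chr9:108853793-108854092 for *Slc26a6*, chr9:108953336-108953635 for *Col7a1* and chr9:108991652-108991951 for *Pfkfb4*.
Slc26a6: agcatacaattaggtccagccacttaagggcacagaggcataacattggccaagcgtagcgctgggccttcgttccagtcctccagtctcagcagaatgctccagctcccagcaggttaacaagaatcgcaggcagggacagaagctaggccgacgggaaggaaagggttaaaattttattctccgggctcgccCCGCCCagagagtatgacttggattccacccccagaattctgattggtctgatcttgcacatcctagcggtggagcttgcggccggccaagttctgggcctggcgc
Col7a1: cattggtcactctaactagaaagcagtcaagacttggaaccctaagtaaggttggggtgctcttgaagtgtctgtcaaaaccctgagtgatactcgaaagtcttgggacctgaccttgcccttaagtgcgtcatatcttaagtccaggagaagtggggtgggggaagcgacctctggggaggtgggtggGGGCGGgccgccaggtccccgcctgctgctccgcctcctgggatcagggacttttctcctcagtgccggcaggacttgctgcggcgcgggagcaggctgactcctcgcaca
Pfkfb4: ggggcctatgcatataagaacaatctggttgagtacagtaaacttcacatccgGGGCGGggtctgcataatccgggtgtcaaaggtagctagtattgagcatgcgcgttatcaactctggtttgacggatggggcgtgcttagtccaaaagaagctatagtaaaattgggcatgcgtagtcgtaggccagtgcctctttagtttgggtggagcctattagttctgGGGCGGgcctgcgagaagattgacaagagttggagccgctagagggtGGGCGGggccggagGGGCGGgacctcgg

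Read on both strands, the *Col7a1* window holds 1 GC box, starting at base -61 from the start site, the *Slc26a6* window 1, at base -56, and the *Pfkfb4* window 4. Of 32851 promoter windows of this length, 35.7% hold at least 1 GC box and 10.7% at least 3. A CCAAT box (CCAAT) was found once in *Col7a1* and *Pfkfb4* and 2 times in *Slc26a6*, against 37.4% of all windows with at least 1, and none of these overlaps a GC box. The TATA box (TATAAA, in 13.6% of all windows), the AP-1 site (TGACTCA, 5.202%) and the E-box (CACGTG, 7.15%) had no match in the 3 windows. The windows were 54.3% to 58.7% G and C, where the median window had 52.7%.

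*Col7a1* was far higher in all *Dek* cKO libraries than in any WT library. In female WT mice it stood at 1.205, 1.56 and 1.66 TPM, and in male WT mice at 1.03, 1.60 and 0.902 TPM. In female cKO mice it stood at 8.43, 6.79 and 5.49 TPM, and in male cKO mice at 7.54, 6.38 and 6.53 TPM. The 2 genotypes did not overlap, and the lowest cKO library had 3.30 times the level of the highest WT library. The mean was 1.33 ± 0.325 TPM in WT (SD, n = 6) and 6.86 ± 1.01 TPM in cKO (SD, n = 6). The log2 difference, cKO minus WT, was 2.31 (SE 0.16), and within the sexes it was 2.14 in females and 2.47 in males (SE 0.23 each). Of all tested genes, 0.148% were called in either direction, 0.137% were called higher in cKO, and 0.572% had all 6 cKO values above all 6 WT values (0.676% did not overlap in either direction). These shares show only where a gene chosen on this same contrast falls.

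Leaving out any 1 library moved the *Col7a1* difference to between 2.21 and 2.37. Without both libraries of conflicting sex it was 2.34, and with the CMV-named libraries alone, which leaves out all female WT mice, it was 2.47. Adding 0.5 or 1 TPM in place of 0.1 before the log2 transform gave 2.02 and 1.76. Among 42 collagen genes tested, which TPM allows to be ranked per length, *Col7a1* was between the 25th and 34th highest in the WT libraries and between the 13th and 16th highest in the cKO libraries. It was the only one of the 42 whose genotypes did not overlap, and it had been chosen on this contrast. Of all tested genes, 0.676% did not overlap, so few among 42 would be found at that share.

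**Figure D1:**
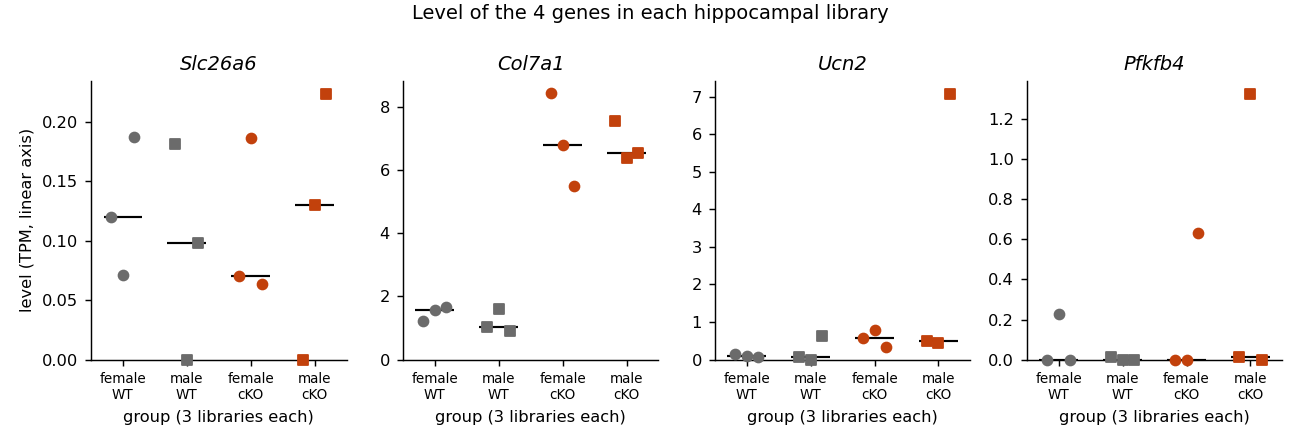
Level in TPM (linear axes from 0, a different range in each panel) of the 4 genes in genomic order, by group. Circles are female and squares male libraries, grey WT and orange cKO, and bars are group medians. *Col7a1* lies between 5.49 and 8.43 TPM in cKO and at or below 1.66 TPM in WT, while *Ucn2* has 1 male cKO library at 7.06 TPM and *Slc26a6* shows no separation.

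*Ucn2*, the next gene downstream, was low but higher in cKO than in WT apart from 1 WT library. Female WT mice had 0.139, 0.0856 and 0.0816 TPM, and male WT mice 0.0769, 0 and 0.636 TPM. Female cKO mice had 0.562, 0.789 and 0.327 TPM, and male cKO mice 0.508, 0.435 and 7.06 TPM. The lowest cKO library exceeded 5 of the 6 WT libraries, and the overlap came from male WT replicate 3, which exceeded 4 of the 6 cKO libraries. Male cKO replicate 3 stood far above all others. The log2 difference was 2.08 (SE 0.65), with 1.66 in females and 2.49 in males (SE 0.95 each). It was 1.48 without male cKO replicate 3, 2.43 without male WT replicate 3 and 1.83 (SE 0.33) without both. Because the level is close to the 0.1 TPM that was added, adding 1 TPM instead lowered the difference to 0.80.

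The library with the high *Ucn2* value also stood apart in an astrocyte gene. *Gfap*, the intermediate filament gene of astrocytes, was at 1267 TPM in male cKO replicate 3 and at 208 to 437 TPM in the other 11 libraries. Its part in the *Ucn2* value was not tested. *Col7a1* in this library, at 6.53 TPM, lay within the range of the other cKO libraries.

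Set against *Col7a1* in the same library, *Ucn2* took a small share in most libraries of both genotypes. In cKO mice the *Ucn2* TPM was 6.67%, 11.6% and 5.96% of the *Col7a1* TPM in the female libraries and 6.73%, 6.83% and 108% in the male libraries. In WT mice it was 11.5%, 5.48% and 4.91% in the female and 7.44%, 0% and 70.6% in the male libraries. The median share was 6.46% in WT and 6.78% in cKO. Outside male replicate 3 of each genotype, the share stayed at or below 11.6%, and both TPM values of a library are divided by transcript length before the share is formed. The shares describe these libraries and were not tested, since both genes were chosen for the contrast between genotypes.

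**Figure D2:**
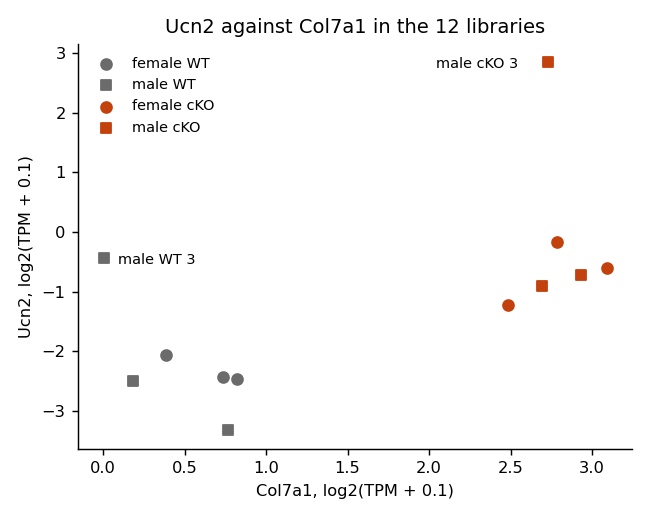
*Ucn2* (y axis) against *Col7a1* (x axis), both as log2(TPM + 0.1), with 1 point per library, circles female, squares male, grey WT and orange cKO. The genotypes separate along *Col7a1*, and the libraries male WT 3 (0.636 TPM) and male cKO 3 (7.06 TPM) lie above the others of their genotype in *Ucn2*.

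*Pfkfb4* was close to 0 in most libraries of both genotypes. It was listed at 0 in 4 libraries and below 0.0001 TPM in another 3. The 3 libraries above 0.1 TPM were female WT replicate 2 at 0.226 TPM, female cKO replicate 3 at 0.630 TPM and male cKO replicate 2 at 1.32 TPM. The other 2 libraries, male WT replicate 1 and male cKO replicate 1, had 0.0139 and 0.0127 TPM. The log2 difference of 0.83 (SE 0.71) was thus carried by 2 of the 6 cKO libraries, and the ranges of the genotypes overlapped. Within the sexes it was 0.39 in females and 1.27 in males (SE 1.08 each). These 2 libraries are not those with high *Ucn2*.

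*Slc26a6* showed no separation of the genotypes. WT libraries had 0.1197, 0.0709 and 0.188 TPM in females and 0.181, 0 and 0.0977 TPM in males. Libraries from cKO mice had 0.0699, 0.186 and 0.0639 TPM in females and 0, 0.130 and 0.223 TPM in males. The log2 difference was -0.0028 (SE 0.39), with -0.15 in females and 0.14 in males (SE 0.58 each), and its error leaves room for a change in either direction at this level. Values at 0 in this table need not mean that a gene was off, because *Apeh*, which encodes a peptidase of nearly all cells and lies 859 kb before *Col7a1*, was listed at 0 in 10 of the 12 libraries.

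None of the tested genes between and beside the 4 was called between the genotypes, and their mean levels ran from 0.134 TPM for *Tmem89* to 94.2 TPM for *Uqcrc1*. *Uqcrc1*, a core subunit of mitochondrial complex III and the nearest gene before *Col7a1*, had 87.0, 96.3 and 97.3 TPM in female WT, 87.1, 97.2 and 94.1 TPM in male WT, 95.7, 100.2 and 95.4 TPM in female cKO and 99.5, 92.6 and 88.0 TPM in male cKO libraries. Its log2 difference was 0.03 (SE 0.05, adjusted p 0.95 by limma with Benjamini-Hochberg adjustment), with a 95% interval of -0.07 to 0.13. A fold change above 1.09 thus lay outside the interval of this gene, 3963 bases from *Col7a1*. *Tmem89*, a small transmembrane protein gene, was near the detection limit, with 4 libraries listed at 0 and a highest value of 0.322 TPM in female WT replicate 2, and its difference was -0.07 (SE 0.49).

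Beyond *Pfkfb4*, *Shisa5*, a gene of the endoplasmic reticulum linked to apoptosis, ranged from 48.1 to 56.6 TPM in WT and from 52.0 to 65.5 TPM in cKO. Its log2 difference was 0.12 (SE 0.06, limma adjusted p 0.77), with a 95% interval of -0.01 to 0.25. *Trex1*, a DNA exonuclease gene, and *Atrip*, the partner of the checkpoint kinase ATR, share an annotated end on the minus strand and their reads may not be fully separable. *Trex1* had a difference of 0.26 (SE 0.20) and *Atrip* one of 0.11 (SE 0.08). On the other side, *Celsr3*, a cadherin of axon guidance, had a difference of -0.11 (SE 0.14), *Nckipsd*, an actin regulator, one of 0.02 (SE 0.06) and *Ip6k2*, an inositol hexakisphosphate kinase, one of -0.32 (SE 0.24). None of these genes was called, and in each the ranges of WT and cKO overlapped. Over all genes, 0.148% were called and 0.676% did not overlap.

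**Figure D3:**
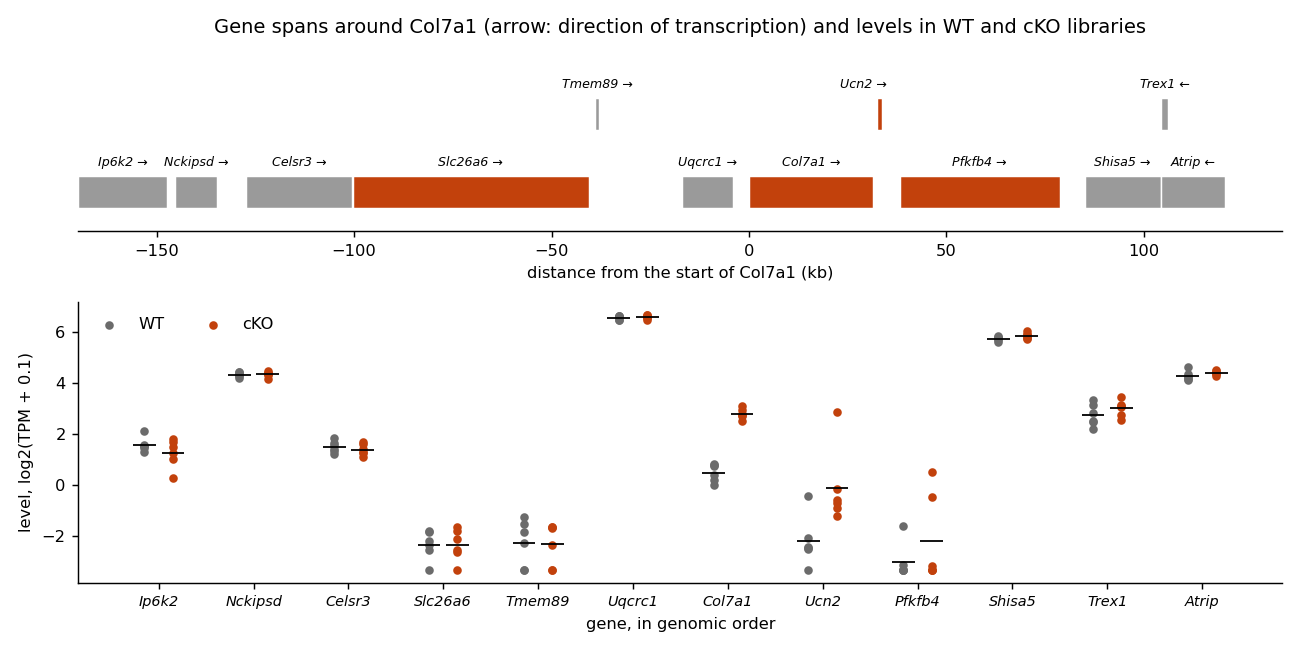
Top, spans of the genes around *Col7a1* against the distance from its start in kb, with arrows for the direction of transcription and the 4 genes described in orange. Bottom, log2(TPM + 0.1) of each gene in the 6 WT (grey) and 6 cKO (orange) libraries, with bars at the means, which shows *Col7a1* separated between the genotypes and *Uqcrc1* and *Shisa5* overlapping on either side.

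Widened to 1 Mb on either side of *Col7a1*, 67 listed genes lie in the window, of which 54 reached the mean of 0.1 TPM. Of the 13 that did not, 10 belong to the *Fbxw* cluster of F-box genes. Among the 50 tested genes other than the 4, none was called by limma, against 0.148% of all genes tested, and 2 had an unadjusted p under 0.05 (4% of them, against 6.64% of all genes). No gene of the 50 had genotypes that did not overlap, against 0.676% of all genes. At these shares, counts of 0 say little about the 50 genes. Their median log2 difference was 0.02, and that of all 18197 genes was also 0.02. The window also holds *Rhoa*, a small GTPase of the cytoskeleton, with 99.5 to 111 TPM in WT and 101 to 118 TPM in cKO. Its difference was 0.02 (SE 0.05), with -0.06 in females and 0.09 in males (SE 0.06 each). The study, with a count model, lists *Rhoa* among genes raised in cKO mice of both sexes. It also reports higher *Rhoa* by quantitative RT-PCR in both sexes. The TPM values here do not show that rise, and the cause of the discrepancy was not tested.

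The 3 smallest unadjusted p-values in the window belonged to genes far from *Col7a1*. *Mst1*, which encodes macrophage stimulating protein and lies 869 kb before *Col7a1*, had 0.312 to 0.991 TPM in WT and 0.30005 to 0.596 TPM in cKO, with a difference of -0.70 (SE 0.26, limma adjusted p 0.63). *Fbxw15*, an F-box gene 568 kb beyond it, had 1.26 to 3.34 TPM in WT and 2.81 to 4.73 TPM in cKO, with a difference of 0.56 (SE 0.22, limma adjusted p 0.66). *Ccdc71*, 488 kb before it, had a difference of 0.13 (SE 0.06, limma adjusted p 0.76). Its unadjusted p of 0.057 in limma was close to the 0.058 of *Shisa5*, which lies 53.7 kb beyond *Col7a1*. The first 2 differences point in opposite directions.

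How large a shared change could have been missed differs with the level of a gene. For 49 of the 50 genes the upper 95% bound of the log2 difference was below the *Col7a1* difference of 2.31. The exception was *Camp*, a cathelicidin gene with a mean of 0.218 TPM and an upper bound of 2.49, named here after its values were seen. Of the 45 genes that averaged 1 TPM or more, 44 had an upper bound below a 2-fold and 43 below a 1.5-fold increase.

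**Figure D4:**
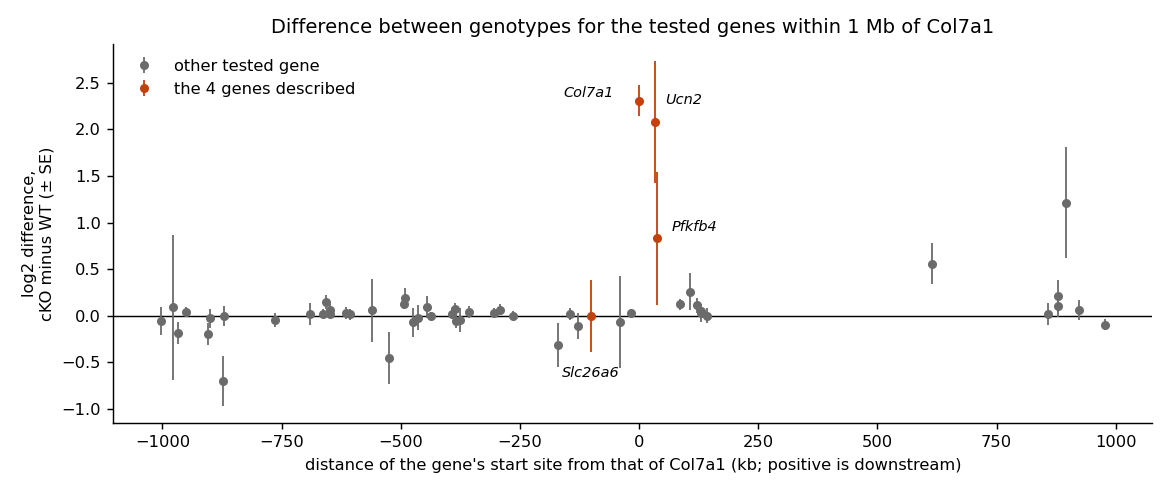
Log2 difference, cKO minus WT, of each tested gene within 1 Mb of *Col7a1* against the distance of its start site from that of *Col7a1* in kb, with bars of 1 SE over 12 libraries. *Col7a1* at 2.31 and *Ucn2* at 2.08 stand above the others, of which *Camp* at 1.21 is the highest, and the widest bars belong to genes below 1 TPM.

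On the whole of chromosome 9, 944 genes were tested. Against 0.148% of all genes, none of them was called by limma apart from *Col7a1*, which was chosen on this contrast. Of the others on chromosome 9, 55 (5.83%) had an unadjusted p under 0.05 in limma, against 6.64% of all genes. Of the other 26 genes called across the genome, 25 lie on other chromosomes and 1 has an identifier that GENCODE M21 does not hold.

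The sexes were compared for the 4 genes in contrasts that had no part in their choice. Between male WT and female WT mice the log2 difference was -0.33 for *Col7a1* (SE 0.23, limma adjusted p 1), 0.23 for *Ucn2* (SE 0.95), -0.51 for *Pfkfb4* (SE 1.08) and -0.32 for *Slc26a6* (SE 0.58). None passed the threshold in limma, and neither did any of the 18197 genes (0% called, 660 with an unadjusted p under 0.05). This share of 0% is no measure of how the sexes differ, because *Eif2s3y* itself, at 0.209 to 0.993 TPM in female and 72.4 to 92.0 TPM in male WT libraries, was not called (log2 difference 7.41, SE 2.29, limma adjusted p 1). Without both libraries of conflicting sex, which lie in the cKO groups that share in the estimate of the spread, its SE was 0.47 (limma adjusted p 0.00064) and 4 genes were called, all on the Y chromosome. The values of the 4 genes and their place below the threshold were the same there, with a lowest limma adjusted p of 0.98 for *Col7a1*. Since all female WT libraries carry the C57 prefix and all male WT libraries the CMV prefix, these values measure sex and prefix together. The median *Col7a1* level was 1.56 TPM in the C57-named and 1.03 TPM in the CMV-named WT libraries, both far below the lowest cKO library.

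The genotype difference was larger by 0.33 in males than in females for *Col7a1* (SE 0.33, interaction in limma, adjusted p 0.97). The interaction was 0.84 for *Ucn2* (SE 1.34), 0.88 for *Pfkfb4* (SE 1.52) and 0.29 for *Slc26a6* (SE 0.83), none past the threshold, with 0% of all genes called and 770 at an unadjusted p under 0.05. Without the libraries whose *Eif2s3y* level goes against their label, the interaction was 0.10 for *Col7a1* (SE 0.37), 1.12 for *Ucn2* (SE 1.53), 2.42 for *Pfkfb4* (SE 1.49) and 0.63 for *Slc26a6* (SE 0.85). None of these passed the threshold either (lowest limma adjusted p 0.67, for *Pfkfb4*), though the value moved by over 1.5 times for *Col7a1*, *Pfkfb4* and *Slc26a6*. The genotype difference within a sex was then 2.29 in females and 2.40 in males for *Col7a1* (SE 0.26 each), 1.94 and 3.06 for *Ucn2* (SE 1.08 each), -0.57 and 1.85 for *Pfkfb4* (SE 1.05 each) and -0.0027 and 0.62 for *Slc26a6* (SE 0.60 each). The interaction for *Ucn2* turned to -0.38 when only male cKO replicate 3 was left out. A sex difference of 0.33 in the effect on *Col7a1*, about its standard error, could not be resolved with 3 libraries a group. Nor could one somewhat larger than that error.

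Genes that work with each of the 4 were read as lists. Of 9 tested genes of anchoring fibrils and the junction of epidermis and dermis, none was called higher or lower, with 0.148% called among all genes, and their median log2 difference was 0.02, the same as over all genes. *Lama3*, a chain of the laminin that binds type VII collagen, ranged up to 1.25 TPM in WT and 1.022 TPM in cKO (difference -0.38, SE 0.17, limma adjusted p 0.71). *Lamb3*, another chain, was listed at 0 in 7 of 12 libraries. A list of this size would seldom hold a call at that share, so the count says little about these partners of type VII collagen.

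Where 0.148% of all genes were called, none of 17 genes for the folding, secretion and processing of collagens was. Their median difference was 0.04, with 15 of 17 above 0, where 55.8% of all genes were above 0. *Serpinh1*, the collagen chaperone, was at 12.1 TPM in WT and 12.5 TPM in cKO on average, and *Bmp1*, a protease that trims procollagen ends, at 9.55 and 10.6 TPM. Of 11 genes of the TGF-beta pathway, which drives *Col7a1* in skin fibroblasts, none was called, with a median of 0.06. *Smad3*, a transcription factor of the pathway, had the lowest adjusted p of these (difference 0.17, SE 0.06, limma adjusted p 0.63).

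Of the other CRF genes, 4 were tested and none was called, where 0.148% of all genes were. *Ucn*, urocortin 1, was listed at 0 in all 12 libraries, and *Ucn3* in 10 of them. *Crhr2*, the receptor of urocortin 2, averaged 2.50 TPM in WT and 2.41 TPM in cKO (difference -0.11, SE 0.31, limma adjusted p 0.98). *Crhr1*, the receptor of CRF, averaged 9.14 and 9.80 TPM. The largest difference of the 4 was that of *Crhbp*, the CRF binding protein, which averaged 2.30 TPM in WT and 1.47 TPM in cKO (difference -0.79, SE 0.50, limma adjusted p 0.85), and the median was -0.05.

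Among the relatives of *Pfkfb4* and *Slc26a6* there was no call either, where 0.148% of all genes were called. Of 8 other tested genes that handle fructose bisphosphates the median difference was 0.07. *Pfkfb1*, the liver-type isoenzyme of *Pfkfb4*, averaged 1.21 TPM in WT and 1.84 TPM in cKO (difference 0.62, SE 0.22, limma adjusted p 0.59). *Pfkfb3*, an isoenzyme that favours synthesis, averaged 13.9 and 14.9 TPM, above every value listed for *Pfkfb4*. Because values at 0 need not mean that a gene was off, these levels do not rank *Pfkfb4* within its family. Of 9 other tested SLC26 genes the median was 0.02, and *Slc26a6* was below most of them. The largest difference was that of *Slc26a10*, which was listed at 0 in 7 of 12 libraries, reached 1.83 TPM in WT and was at or near 0 in all cKO libraries (difference -1.80, SE 0.76, limma adjusted p 0.70).

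**Figure D5:**
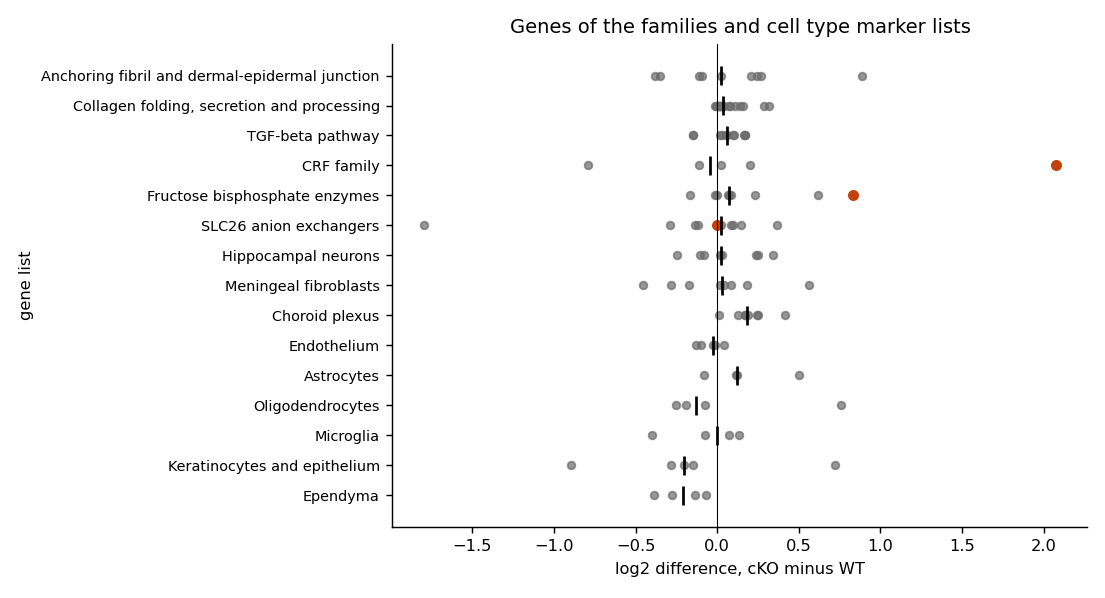
Log2 difference, cKO minus WT, of each tested gene (grey points) in the family and cell type marker lists, with *Ucn2*, *Pfkfb4* and *Slc26a6* in orange in their own families and black bars at the median of the grey points. The medians lie between -0.21 and 0.18, and no grey gene was called.

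Cell types that could bring *Col7a1* into a hippocampal dissection were checked by their markers. The hippocampal neuron markers summed to 1820 to 1998 TPM in WT and 1716 to 2180 TPM in cKO libraries, and all 8 were above 0 in every library. Markers of keratinocytes and epithelium summed to 8.19 to 13.3 TPM in WT and 5.30 to 11.6 TPM in cKO. Most of this sum was *Dsp*, which averaged 7.72 TPM in WT and 6.87 TPM in cKO, where each other marker averaged under 1 TPM. Which cells the *Dsp* RNA came from was not tested, so the sum does not measure epithelial content. *Krt14* and *Epcam*, markers of basal keratinocytes and of epithelia, were listed at 0 in 9 and 8 of the 12 libraries. *Krt15* was listed at 0 in 1 library, and *Krt5*, *Trp63* and *Dsp* were above 0 in all 12. *Krt5* stood at 0.685 to 1.36 TPM in WT and 0.346 to 1.15 TPM in cKO, and *Dsp* at 4.46 to 11.0 and 4.29 to 8.76 TPM. *Krt14* reached at most 0.0697 TPM in WT and 1.87 TPM in cKO, the latter in male cKO replicate 3, the library of high *Ucn2*. Meningeal fibroblast markers summed to 102 to 183 TPM in WT and 55.7 to 275 TPM in cKO. Choroid plexus markers varied most, from 71.5 to 3068 TPM in WT and from 46.8 to 4496 TPM in cKO. In each of these lists the genotypes overlapped and no gene was called, where 0.148% of all genes were called. Lists of this size would seldom hold a call at that share. Differences above 0 were found for 8 of 8 choroid plexus markers (median 0.18) and 5 of 8 meningeal fibroblast markers. For keratinocytes and epithelium it was 1 of 5 tested markers. Whether such cells added to the *Col7a1* level was not tested. In bulk tissue, more cells that make *Col7a1* and more *Col7a1* RNA per cell cannot be told apart.

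Over the 12 libraries, the 10 genes whose log2 levels followed *Col7a1* most closely included *Perm1* (Pearson r 0.95), *Gm15319* (0.95), *Lax1* (0.94), *Tmc4* (0.94), *Piwil2* (0.93), *A3galt2* (0.93), *Ovgp1* (0.92), *Serpinb6e* (0.92) and *Ackr1* (0.92). All 10 had cKO values above all WT values and 8 were called, so these correlations, with 6 libraries of each genotype, largely repeat the genotype contrast. *Ackr1*, an atypical chemokine receptor of venules, was the most abundant of the 10, with 40.5 TPM in WT and 61.0 TPM in cKO. None of the 10 lies within 1 Mb of *Col7a1*.

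After the 4 group means were removed, which leaves the variation between libraries of 1 group, a different 10 genes led. They included *Creld1* (r 0.97), *Skint8* (0.95), *Rnf26* (0.94), *Dync1li1* (0.93), *Stxbp2* (0.92), *Sh2b3* (0.92), *Adar* (0.92), *Dido1* (0.92) and *Clcn2* (0.91). No gene was shared with the first 10, none was called between the genotypes, and none lies within 1 Mb. Of the other 3 genes and the named neighbours, *Celsr3* correlated best with *Col7a1* on this measure (r 0.84, rank 79) and *Slc26a6* least (r -0.46). *Ucn2* had r 0.60 over the 12 libraries and -0.37 on this measure, and *Pfkfb4* had 0.27 and -0.32. With 12 libraries and 17497 genes ranked, high values are found among unrelated genes, and neither the lists nor these values were tested.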

How the data were processed

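RNA was extracted from microdissected hippocampi of 12 mice and sequenced as poly-A selected, stranded, paired-end libraries. The authors deposited 1 table of TPM values per gene and library, which account for transcript length and are scaled within each library. The submitters' processing notes name kallisto and mm10, and the study's methods name STAR and Salmon with GRCm38. Which of them wrote the table is not given in the sources used here. Read counts are not kept, so the count model of the study was replaced by limma on log values. All 12 columns were matched to samples by name. Gene IDs were matched to GENCODE M21 (25262 of 26409).

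Values were analysed as log2(TPM + 0.1) for genes averaging 0.1 TPM or more, with limma (version 3.58.1, R 4.3.3), a trended prior variance, two-sided moderated statistics and Benjamini-Hochberg adjustment over 18197 genes. The comparison of genotypes used 2 groups of 6 libraries, and the interaction and male WT against female WT used 1 fit of 4 groups. The 4 genes and the gene lists were chosen with earlier results of these data known. Named genes are these 4, the tested genes between them, 3 on each side and the 3 smallest p-values of other genes within 1 Mb. Also named are *Dek*, any called gene of the lists, and the 10 genes most like *Col7a1* by each of 2 correlations. Other genes, named to illustrate a list, a library or the window, were chosen after their values were seen. Results for some genes that these rules pick are not reported here. Labels do not say that the animals come from separate litters, and p-values measure the spread between these libraries.

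Libraries of 1 sex with the same replicate number did not deviate together (correlations of deviations from the group means of -0.04 to 0.04), so the numbers do not pair them. Alternatives changed the added TPM, the filter, the scaling, the prior variance, the covariates, the libraries and the width of the window. Figures and tables used Python 3.11.15, pandas 2.3.3, scipy 1.17.1 and matplotlib 3.10.9.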

Additional observations from a re-analysis of the deposited data

Results flagged for a closer look

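In the 6 libraries of each genotype, 13 genes (the 4 genes, their named neighbours and *Dek*) were examined for a single library standing apart from the other 5, by the gap to its nearest neighbour relative to the whole range, in 26 groups. At the 95% level, 4 of these groups were picked out. The rate of 1 in 20 by chance holds for normally distributed values. TPM values near 0, as in *Ucn2* and *Pfkfb4*, are skewed, so the 4 cannot be set against that rate. *Ucn2* stood at 7.06 TPM in male cKO replicate 3, a gap of 0.93 of the range. *Ucn2* also stood at 0.636 TPM in male WT replicate 3, with a gap of 0.78 of the range. *Pfkfb4* stood at 0.226 TPM in female WT replicate 2, where the other 5 WT libraries were at or near 0 and the gap was 0.94 of the range. *Ip6k2* stood at 4.17 TPM in female WT replicate 1, with a gap of 0.75. *Col7a1* was not picked out in either genotype.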

How the results depend on the processing

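The *Col7a1* difference kept its direction in all 24 alternatives, from 1.76 to 2.47, and fell to 2.02 and 1.76 when 0.5 or 1 TPM was added before the log2 transform, and *Ucn2* fell to 0.80 with 1 TPM added, as values near the added amount are compressed. No gene other than the 4 within 1 Mb was called in any of 27 alternatives, and the median difference in the window ranged from 0.0021 to 0.049. The number of genes called across the genome, 27, was less stable. It was 17 with no filter on low values, 8 with the CMV-named libraries alone, 16 without both libraries of conflicting sex and 17 without both libraries of high *Ucn2* (an alternative chosen after seeing the data). With a replicate block, which pairs libraries by a number they only share, it was 3. Leaving out each library in turn gave 13 to 27, with 15 without female cKO replicate 1, 13 without female cKO replicate 2 and 17 without male cKO replicate 1. The cause was not tested. With the replicate block the *Col7a1* difference remained 2.31 and no interaction passed the threshold.

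Leaving out each library in turn turned the sign of some values that passed no test. The interaction ranged from -0.13 to 0.77 for *Slc26a6* (below 0 without male WT replicate 2 or male cKO replicate 3) and from -0.38 to 1.66 for *Ucn2* (below 0 without male cKO replicate 3). Male WT minus female WT ranged from -0.65 to 0.094 for *Slc26a6* (above 0 without male WT replicate 2), from -0.59 to 0.85 for *Ucn2* (-0.59 without male WT replicate 3 and also without both libraries of high *Ucn2*) and from -0.79 to 0.063 for *Pfkfb4* (above 0 without female WT replicate 2). *Slc26a6*, *Ucn2* and *Pfkfb4* fell below a filter of 1 TPM and have no value there, and without male cKO replicate 2 *Pfkfb4* fell below the filter of 0.1 TPM and has none. The 10 genes most like *Col7a1* by Pearson correlation shared 0 genes with the first 10 by Spearman correlation. Low levels limit *Pfkfb4*, *Slc26a6* and *Tmem89*, whose values include many at or near 0.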

Other observations

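The tested genes of the window were not spread evenly in sign on the sides of *Col7a1*, a split made after the values were seen and not tested. Of the 13 genes beyond *Col7a1* other than *Ucn2* and *Pfkfb4*, 12 had a log2 difference above 0, with a median of 0.10, and of the 37 genes before it other than *Slc26a6*, 21 did, with a median of 0.02. Quantile normalization gave 10 of 13 and 18 of 37, with medians of 0.05 and -0.0019, and leaving out both libraries of high *Ucn2* gave 9 of 13 and 20 of 37. None of these genes was called by limma, and 1 on each side had an unadjusted p under 0.05, so the differences are small against the spread between libraries.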
